A study of Mus musculus with 12 samples.

Results

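Left ventricles of mice taken 1 week after transverse aortic constriction (TAC) were compared with left ventricles taken 1 week after a sham operation. The comparison was chosen by its labels, and it uses 2 of the 12 arrays of the series, 1 on each side. The TAC array holds RNA of the left ventricle of Balb/c mice, aged 6 to 8 weeks, whose transverse aorta had been tied against a needle that was then withdrawn. The sham array holds the same tissue of the same strain and age after the same surgery with no constriction. The other 10 arrays are TAC and its sham at 1 day and at 1 month, myocardial infarction by a coronary ligature that was later released (MI) and its sham at 1 week and at 1 month, and angiotensin II (Ang II) infusion and its saline control at 1 week. The 6 control arrays, of which the sham of TAC 1 week is 1, served as the measure of error. Whether an array holds 1 animal or a pool is not stated, and no pressure, gradient or heart weight is given in the sources used here. The shams of the TAC and MI series at 1 week carry the same description, and only their titles tell them apart.

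In this model the constriction raises the pressure against which the left ventricle ejects, and the muscle thickens over the following days and weeks. Pressure overload is known for the return of genes of the fetal heart in cardiac myocytes, for the activation of fibroblasts, which lay down collagen and other matrix proteins, and for a lower output of genes of mitochondrial fuel use. A tissue array reads the mixture of all these cells, so fewer cells of a type and less RNA per cell cannot be told apart, nor can more cells and more RNA per cell.

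All values are array signals in arbitrary units, scaled so that the 12 arrays share a common trimmed mean, and each ratio is a log2 ratio of TAC 1 week to its sham. The trimmed mean before scaling was 127.6 on the TAC array and 110.1 on its sham, within the range of 105 to 131 over all arrays. The actin 3' to 5' ratio, a measure of RNA integrity, was 1.20 on the TAC array and 1.28 on its sham, and that of Gapdh 0.811 and 0.827 on the same arrays. The median log2 ratio over the 11624 tested genes was -0.0028, so the scaling left the bulk of genes level. With 1 array a side there is no replicate check, no test and no p-value, and sizes are read against differences between control arrays.

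A gene was called 2-fold when its ratio was at least 2-fold, its brighter signal exceeded the median of all arrays (25.9), and the TAC array lay beyond all 6 controls. By this rule 253 genes were higher on the TAC array (2.18% of those tested) and 96 were lower (0.826%). The same limits of size and brightness were applied between control arrays of the same time, in 8 comparisons. There an array had to lie beyond the other 5 controls, which is easier to meet than beyond 6. These comparisons gave 67 to 217 higher genes (0.576% to 1.87%) and 113 to 209 lower genes (0.972% to 1.8%). The count of higher genes was therefore above every control comparison, and the count of lower genes was below all of them. A stricter limit, added after the data were seen, asked the TAC array to be 2-fold beyond the most extreme of the 6 controls. It was met by 76 higher genes (0.654%), against 0 to 9 for a single control beyond the other 5. It was met by 15 lower genes (0.129%), against 10 to 29 for a single control. Higher calls were also brighter than lower ones, with a median brighter signal of 87.5 for the 253 higher and 51.7 for the 96 lower genes, although both lay under the median of 159.7 over all tested genes. By these counts the excess over differences between controls lies on the side of higher signals, and the lower calls are no more frequent than between controls. Each control comparison of the same time joins arrays of different series, however, whereas TAC and its sham are of the same series. Whether this raises the counts between controls was not tested. Of all calls 72.5% were higher, and with the deposited signals unscaled the share was 90.3%, from 513 higher and 55 lower genes, because all genes then shift by a median of 0.211. The calls also depended on the control array. Against the Ang II control of 1 week 508 genes were higher and 173 lower, and 162 and 60 of these were also called against the sham. Against the MI sham of 1 week 378 were higher and 109 lower, with 141 and 53 shared.

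**Figure D1:**
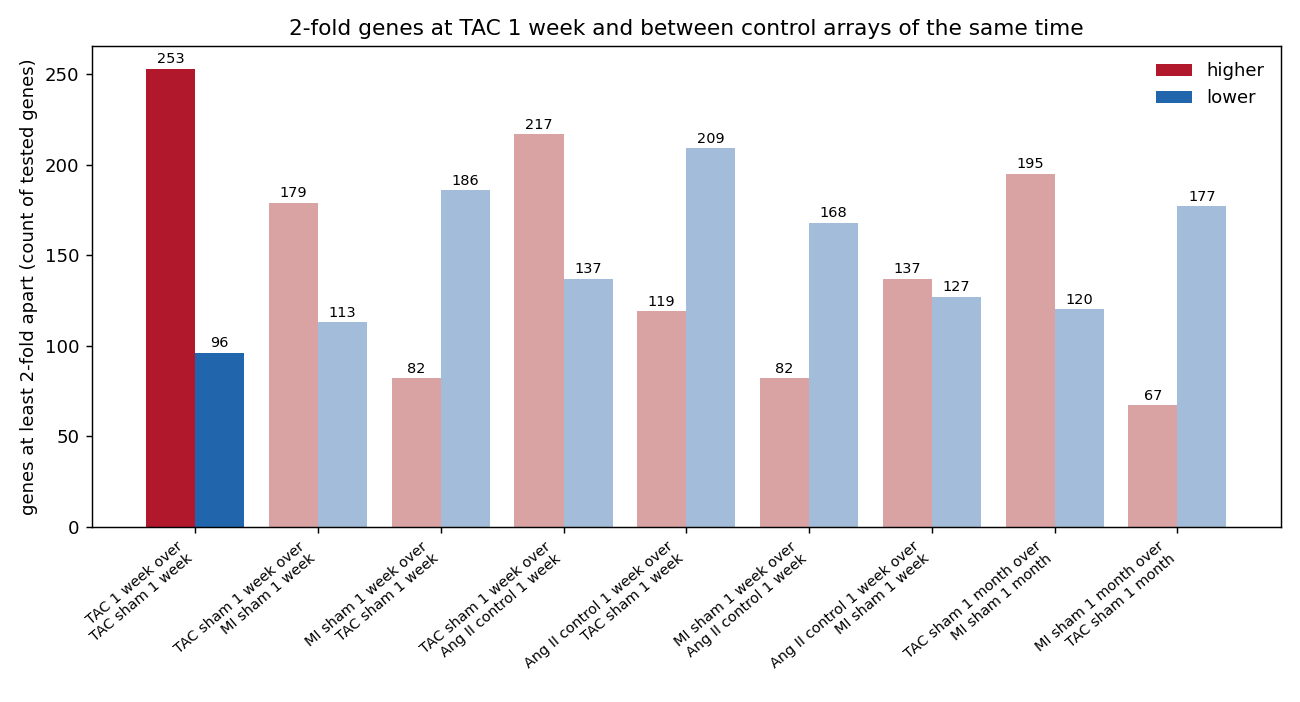
Bars count the tested genes at least 2-fold higher (red) and lower (blue) on the first named array, for TAC 1 week over its sham at the left and for 8 comparisons between control arrays of the same time in paler colours. The 253 higher genes of TAC exceed the 67 to 217 of the control comparisons, whereas the 96 lower genes lie under their 113 to 209.

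A second call rule, for lists whose differences are small, asks only whether the TAC array lies above or below all 6 controls, whatever the size. It was met by 2539 genes above (21.8% of those tested) and 2463 below (21.2%). A single control array lay above the other 5 for 12.4% to 23.6% of genes and below them for 13.6% to 21.4%. A list whose share outside the controls is near these percentages is thus at the background, and the counts of lists are read against the most that any control array reached. Counts of 2-fold members stand beside the shares of all tested genes, 2.18% higher and 0.826% lower. Between control arrays they were not made list by list.

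Load-responsive genes of the ventricle were read first, and all 25 measured members of a list of fetal and hypertrophy genes are reported. Nppa, which encodes atrial natriuretic peptide, had a signal of 8379.7 on the TAC array, 1567 on its sham and 1357 to 3075 on the other 5 controls, a ratio of 5.35-fold. Myh7, the slow myosin heavy chain of the fetal mouse ventricle, had 3819.8 on the TAC array, 815 on its sham and 564 to 1356 on the others, or 4.69-fold. For both genes the TAC array stood clear of every control. Nmrk2, a muscle kinase of NAD synthesis, measured 526 on the TAC array and 92.1 on its sham (66.6 to 146 on the others), and Ccn2, the connective tissue growth factor, 2409.9 and 713 (896 to 1141). These 2 were 5.72-fold and 3.38-fold higher than on the sham, again beyond all controls. The log2 ratios were 2.42 (Nppa), 2.23 (Myh7), 2.52 (Nmrk2) and 1.76 (Ccn2). At MI 1 week, against the MI sham, the same genes had 2.91, 3.75, 1.94 and 2.21. They set the TAC array apart from controls but cannot tell TAC from MI.

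The list was not uniform. Of its 25 measured members 7 were 2-fold higher, 13 lay above all 6 controls, 9 within their range and 3 below them. A single control lay above the other 5 for up to 11 of these genes and below for up to 6, so the counts are near what 1 control reaches. The median log2 ratio was 0.56, against at most 0.15 between control arrays. The other 2-fold members were Uchl1, a ubiquitin hydrolase (1.44), Mybpc2, the fast skeletal myosin-binding protein C (1.17), and the tubulin Tubb2b (1.13), of which Uchl1 and Tubb2b were dim, at 33.6 and 47.8 on the TAC array. Smaller ratios beyond all controls were found for the Z disc protein Synpo2l (0.98), the stretch-responsive LIM protein Fhl1 (0.69), the filament protein Vim (0.67), the actin regulator Enah (0.61), the calcineurin inhibitor Rcan1 (0.56) and the tubulin Tuba1a (0.52). The other probe sets of Synpo2l disagreed, with negative log2 ratios of -0.43 for 2 of them and a ratio of 1.504 for the other.

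Several standard hypertrophy markers did not leave the control range. Nppb, the B-type natriuretic peptide, had a signal of 6873 on the TAC array and 6251 on its sham, with 4711 to 7278 on the other controls. The skeletal alpha-actin Acta1 measured 10124 on the TAC array and 9342 on its sham, and the stretch-induced nuclear cofactor Ankrd1 10231 and 9534. Their log2 ratios were 0.14, 0.12 and 0.10. All 3 were bright on every array, where the highest scaled signal of any probe set was 15270. Whether ratios are reduced at such signals was not tested. Also within the control range were Xirp1 (0.13), Flnc (0.31), Des (0.42), Nes (0.35) and the metallothioneins Mt1 (0.33) and Mt2 (0.82). Below all controls were the smooth muscle actin Acta2, at 3028 on the TAC array and 4648 on its sham (-0.62), the cardiac actin Actc1 (-0.32) and the Z disc protein Csrp3 (-0.21, but 0.0284 after quantile normalization and 0.00319 with the deposited signals).

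Genes more typical of the atria were examined as well, because Nppa is also an atrial gene. Of 15 measured atrial markers 5 were 2-fold higher and 6 lay above all 6 controls, as many as a single control reached, while 4 lay below, and the median log2 ratio was 0.21 against at most 0.32 between controls. With all probe sets of a gene averaged the atrial median, less that of all genes, was -0.139, so the list has no settled direction. The 5 were Nppa, the peptide-processing enzyme Pam (1.81), the Wnt modulator Dkk3 (1.54), the calcium pump regulator Sln (1.27) and the atrial myosin light chain Myl7 (1.13). Myl7 measured 908 on the TAC array and 415 on its sham, with 369 to 840.4 on the others, so its margin over the highest control was small. The related light chain Myl4, at 800.1 on the TAC array and 435 on its sham, stayed within the range of 412 to 942 of the other controls. The summed signal of the list was 12028 on the TAC array and 3900.5 on its sham, with 3835 to 6537 over all controls, and Nppa made up most of the difference. The share of atrial tissue in the samples was not tested.

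**Figure D2:**
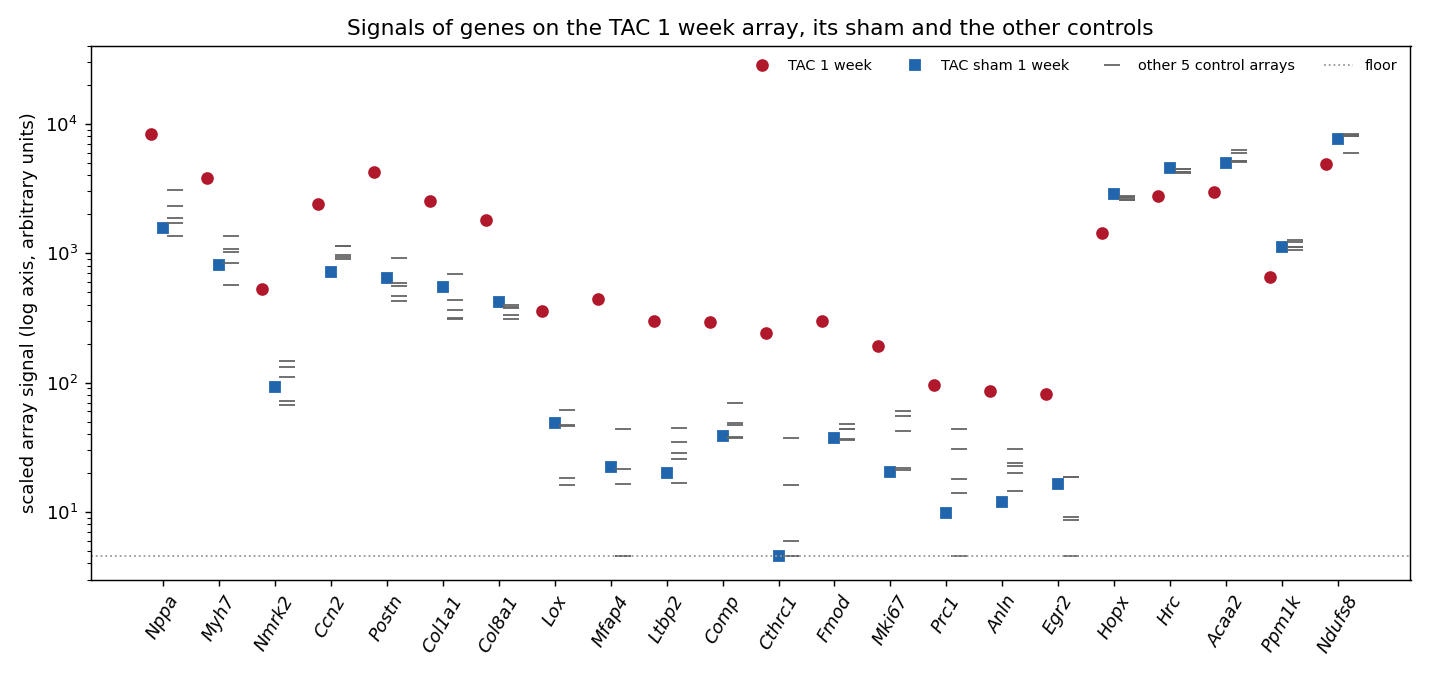
Scaled signals on a log axis of 22 named genes on the TAC 1 week array (red circles), its sham (blue squares) and the other 5 control arrays (grey bars), with the floor as a dotted line. From Nppa to Egr2 the red circle lies above every control, and from Hopx to Ndufs8 it lies below them.

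Collagens, the main load-bearing proteins of the matrix, were higher on the TAC array in every measured member. All 18 measured collagen genes lay above all 6 controls and 12 of them were 2-fold higher, whereas a single control array lay above the other 5 for at most 5 of the 18. Their median log2 ratio was 1.12, against at most 0.24 between controls. Col1a1, a chain of the main fibrillar collagen, measured 2547 on the TAC array, 545 on its sham and 309 to 689.8 on the others. Col1a2, the partner chain, measured 4199.7 on the TAC array and 1305 on its sham. The log2 ratios were 2.22 and 1.69, and 2 other probe sets of Col1a2 gave 2.10 and 2.57. Col8a1, a short-chain network collagen, measured 1818 on the TAC array and 420.0 on its sham (2.11), and Col5a2, of a collagen that nucleates fibrils, 2099 and 553 (1.93).

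The difference ran through the classes of collagen but was not equal among them. Col3a1, the second main fibrillar collagen, was 2.13-fold higher, at 7006 on the TAC array and 3292 on its sham. The beaded-filament chains Col6a1, Col6a2 and Col6a3 had log2 ratios of 1.02, 0.97 and 1.23. The basement membrane chains Col4a1 (0.56), Col4a2 (0.43) and Col4a5 (0.53) were above the controls by less. The lowest ratio of the 18 was 0.41, for the dim Col12a1. The summed signal of the 18 genes was 31354 on the TAC array and 14042 on its sham, the highest of the 6 controls, whose lowest was 9729.8.

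Matricellular proteins, which sit in the matrix and act on cells rather than bear load, were also uniformly high. All 17 measured members lay above all 6 controls, against at most 4 for a single control, and 10 were 2-fold higher. The median log2 ratio was 1.44, against at most 0.30 between controls. Postn, a protein of activated fibroblasts, measured 4222 on the TAC array, 645 on its sham and 428 to 916 on the others, or 6.55-fold. Comp, a cartilage oligomeric protein that binds collagen, measured 292 on the TAC array and 38.8 on its sham, and Tnc, a tenascin of injured tissue, 104 and 14.01. They were 7.53-fold and 7.43-fold higher and beyond every control, while a second probe set of Tnc was at the floor on both arrays. Cthrc1, a secreted protein of collagen-producing fibroblasts, had the largest ratio of all tested genes. It measured 243 on the TAC array while its sham was at the floor of 4.54, so it was at least 53.5-fold higher, but the other controls reached 37.6 and the ratio to the highest of them was 6.46-fold.

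Elastic fibre and microfibril genes showed a similar pattern with exceptions. Of 15 measured members 8 were 2-fold higher and 1 was 2-fold lower, 12 lay above all controls (at most 6 for a single control), and the median log2 ratio was 1.00 against at most 0.09 between controls. Mfap4, a microfibril-associated protein, measured 439 on the TAC array, 22.4 on its sham and between the floor and 43.4 on the others. Ltbp2, which binds fibrillin microfibrils, measured 298 on the TAC array, 20.04 on its sham and 16.6 to 44.9 on the others. Eln, the elastin gene, measured 348 on the TAC array and 99.97 on its sham, with the others up to 157. These 3 were 19.6-fold, 14.9-fold and 3.48-fold higher. Efemp1, a fibulin, ran the other way, at 31.9 on the TAC array, 92.2 on its sham and 52.5 to 106 on the others.

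Proteoglycans and the enzymes that mature collagen gave smaller medians. Of 16 measured proteoglycan genes 6 were 2-fold higher and 12 lay above all controls, against at most 5 for a single control, with a median log2 ratio of 0.84. Fmod, a small proteoglycan that binds collagen fibrils, measured 298 on the TAC array, 36.96 on its sham and 35.9 to 47.8 on the others. Its 5 other probe sets gave log2 ratios from 0.18 to 2.40, all lower than the 3.01 of the brightest. Aspn (1.63) and Bgn (1.21), of the same family, were higher by less, and Dcn, decorin, had a ratio of only 0.03. Of 24 genes of collagen cross-linking and maturation, 2 were 2-fold higher. They were Lox, the enzyme that cross-links collagen and elastin, and its relative Loxl3 (1.22). Lox measured 358 on the TAC array, 48.6 on its sham and 16.1 to 61.4 on the others, and of its other probe sets 1 gave 3.09 and 1 was near the floor on both arrays. Of the 24 genes 15 lay above all controls, against at most 8 for a single control, and the median was 0.41 against at most 0.07 between controls. The prolyl hydroxylases of collagen P3h3 (0.96) and P3h1 (1.18) had ratios of similar size, but P3h1 stayed within the range of the controls.

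Proteases and their inhibitors were mixed. Of 21 measured members 4 were 2-fold higher, and the median of 0.32 did not exceed the largest difference between controls (0.34). Above all controls lay 12 and below them 2, against at most 7 on either side for a single control. Adam12, a metalloprotease of mesenchymal cells, measured 79.96 on the TAC array with its sham at the floor, at least 17.6-fold, while the others reached 36.5 and a second, dimmer probe set gave a log2 ratio of 0.74. The inhibitor Timp1 measured 242 on the TAC array and 109.9 on its sham (1.14), and the membrane proteases Mmp23 and Mmp14 had ratios of 1.22 and 1.05. Of the 21 genes 15 had a positive and 6 a negative ratio. The lowest was that of the dim Mmp9 (-1.31), at 14.2 on the TAC array and 35.4 on its sham. Against the MI sham of 1 week its ratio was 1.65.

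Genes of activated fibroblasts, a list that overlaps the matrix lists, had the highest median log2 ratio of the lists examined. Of 21 measured members 15 were 2-fold higher and 19 lay above all controls, with a median log2 ratio of 1.79, and at most 6 members were above the rest for any control. Cilp, a matrix protein of fibroblasts, measured 798 on the TAC array, 167 on its sham and 84.05 to 132 on the others. Meox1, a transcription factor of activated fibroblasts, measured 335 on the TAC array and 112 on its sham (1.58). Acta2 and Runx1 did not share this direction, with ratios of -0.62 and -0.75. Genes of resting fibroblasts differed less. Their median was 0.31 over 25 measured members, against at most 0.22 between controls, with 15 above all controls (at most 8 for a single control), and 2 were 2-fold higher, the matrix genes Mfap4 and Col15a1. Their summed signal was 18543 on the TAC array and 18317 on its sham, inside the 16984 to 18571 of all controls. Pdgfra, the receptor that marks these cells, was at 627 on the TAC array and 518 on its sham (0.28).

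Ligands and receptors that act on fibroblasts were compared next. Of 22 measured genes of TGF-beta, activin and BMP signalling 6 were 2-fold higher, and the median log2 ratio was 0.29 against at most 0.13 between controls. Above all 6 controls lay 12 and below them 1, against at most 5 and 7 for a single control. Among ligands Tgfb2 measured 207 on the TAC array and 74.3 on its sham, with 49.7 to 80.1 on the others, and Tgfb3 323 and 139.5 (116 to 174). Both were 2-fold higher (1.48 and 1.21), whereas Tgfb1 stayed within the controls at 239 on the TAC array and 193 on its sham. The secreted follistatin-like proteins Fstl1 (1.34) and Fstl3 (1.25) were higher, and the receptors Tgfbr1 (0.68) and Tgfbr2 (0.30) were above all controls by less. The inhibitory Smad6 and Smad7 stayed within the control range, at 0.13 and 0.03.

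Of 24 measured genes of the IGF, FGF and EGF families only Igf1 was 2-fold higher, and the median was 0.17 against at most 0.12 between controls. Igf1, a growth factor of muscle and mesenchyme, measured 377 on the TAC array, 155 on its sham and 93.3 to 159 on the others. Its 3 other probe sets gave log2 ratios of 0.95, 1.27 and 1.32, beside 1.28 for the brightest. Hbegf, a heparin-binding growth factor of the EGF family, measured 486 on the TAC array and 284 on its sham (0.78). Secreted Wnt modulators were higher in 4 of 13 cases at 2-fold, with a median of 0.45 against at most 0.29 between controls. Above all controls lay 8 of the 13 and below them 1, against at most 7 and 4 for a single control. Sfrp2, which binds Wnt ligands, measured 193 on the TAC array, 53.98 on its sham and 27.7 to 48.5 on the others. Frzb, of the same family, measured 564 on the TAC array and 242 on its sham (1.22). The sham array itself lay above the other 5 controls for 7 of these 13 genes.

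**Figure D3:**
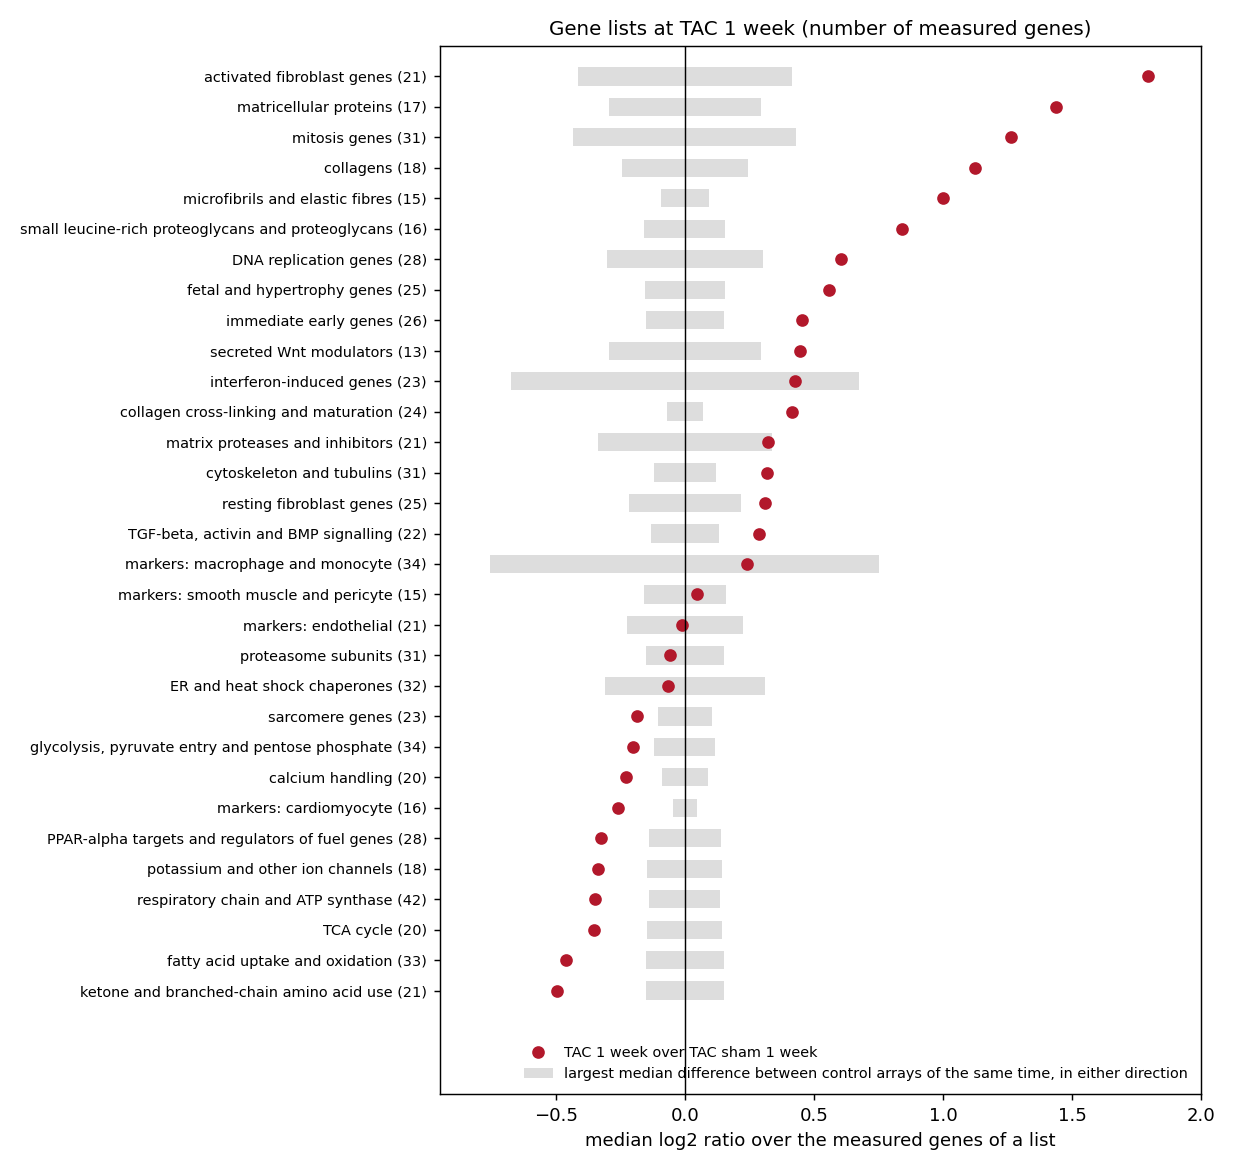
For 31 gene lists, the red dot is the median log2 ratio of TAC 1 week to its sham over the measured genes, and the grey bar spans the largest median difference between control arrays of the same time in either direction. Lists of activated fibroblasts (1.79), matricellular proteins (1.44), mitosis (1.26) and collagens (1.12) lie far to the right of their bars, and fuel lists lie to the left.

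Genes of cell division formed the second group of large ratios. Of 31 measured mitosis genes 18 were 2-fold higher and 26 lay above all 6 controls, against at most 10 for a single control, and 5 lay within the control range. The median log2 ratio was 1.26, against at most 0.43 between controls. The array carries 48 genes of the list, and the others were left out as dim. That filter uses the mean of all 12 arrays, the TAC array included. A dim member can therefore pass it through a high TAC signal, which may raise these shares. Mki67, a nuclear protein of dividing cells, measured 192 on the TAC array, 20.5 on its sham and 21.2 to 59.8 on the others. Prc1, which bundles microtubules at the division plane, measured 95.5 on the TAC array, 9.76 on its sham and between the floor and 43.6 on the others. Anln, an actin-binding protein of the cleavage furrow, measured 86.4 on the TAC array, 12.04 on its sham and 14.6 to 30.6 on the others. In each case the TAC array was above every control, and it was 9.40-fold, 9.79-fold and 7.18-fold higher than its sham. Kif23, a motor of the central spindle, measured 62.7 on the TAC array and 7.06 on its sham, but another control reached 52.2, and its 2 other probe sets were near the floor on both arrays. A second, dim probe set of Anln had 6.18 on the TAC array and 12.35 on its sham.

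These signals were low, and that limits the sizes. The list summed to 3242 on the TAC array and 1534 on its sham, with 1363.5 to 1972 over all controls, and the sham lay below the other 5 controls for 3 of the 31 genes. With all probe sets of a gene averaged, 10 mitosis genes were 2-fold higher and 15 lay above all controls. The filter on dim genes was applied anew to the averages and left 10781 genes, so these counts need not be out of 31. At 2-fold beyond the highest control there were 7. Ratios of Mki67 and Prc1 to the highest control were 3.22-fold and 2.19-fold. Kif2c (-0.84) and Foxm1 (-0.19) were the members with a negative ratio.

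Many promoters of mitosis genes carry a pair of short elements, a CCAAT box and the cell cycle genes homology region (CHR). Through the CHR their transcription is held back outside division in mammals. The promoters of 4 of the genes with the highest ratios and of Cdk1, the mitotic kinase, are printed because the genes were higher together. They come from RefSeq (GRCm38.p6), run 5′ to 3′ on the strand of the gene from 250 bases before to 30 after its start, and the capitals mark every TTTGAA (CHR) and CCAAT on either strand, so also TTCAAA and ATTGG. Prc1 lies at chr7:80294201-80294480 (plus strand), Mki67 at chr7:135716350-135716629 (minus), Kif23 at chr9:61946770-61947049 (minus), Anln at chr9:22389177-22389456 (minus) and Cdk1 at chr10:69352883-69353162 (minus).
Prc1: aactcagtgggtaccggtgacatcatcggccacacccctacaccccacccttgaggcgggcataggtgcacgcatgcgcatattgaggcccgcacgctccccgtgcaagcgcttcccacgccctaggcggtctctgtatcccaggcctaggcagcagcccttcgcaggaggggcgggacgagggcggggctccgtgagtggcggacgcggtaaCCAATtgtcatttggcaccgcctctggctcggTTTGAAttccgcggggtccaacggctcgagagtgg
Mki67: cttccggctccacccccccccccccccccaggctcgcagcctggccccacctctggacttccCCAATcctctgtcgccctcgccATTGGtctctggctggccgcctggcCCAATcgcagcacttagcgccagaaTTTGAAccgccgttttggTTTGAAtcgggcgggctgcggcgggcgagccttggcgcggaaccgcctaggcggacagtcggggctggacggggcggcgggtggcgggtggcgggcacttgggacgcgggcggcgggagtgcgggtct
Kif23: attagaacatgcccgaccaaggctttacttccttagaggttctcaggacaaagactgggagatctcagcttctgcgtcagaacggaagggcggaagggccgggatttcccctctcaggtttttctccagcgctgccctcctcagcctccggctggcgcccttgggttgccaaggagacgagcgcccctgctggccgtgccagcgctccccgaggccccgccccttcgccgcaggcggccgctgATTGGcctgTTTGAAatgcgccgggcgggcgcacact
Anln: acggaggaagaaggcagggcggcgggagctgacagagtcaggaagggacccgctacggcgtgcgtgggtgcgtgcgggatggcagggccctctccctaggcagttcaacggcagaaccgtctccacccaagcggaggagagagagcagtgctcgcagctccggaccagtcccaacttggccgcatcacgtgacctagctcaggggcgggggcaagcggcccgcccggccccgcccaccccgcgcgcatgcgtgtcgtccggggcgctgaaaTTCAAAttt
Cdk1: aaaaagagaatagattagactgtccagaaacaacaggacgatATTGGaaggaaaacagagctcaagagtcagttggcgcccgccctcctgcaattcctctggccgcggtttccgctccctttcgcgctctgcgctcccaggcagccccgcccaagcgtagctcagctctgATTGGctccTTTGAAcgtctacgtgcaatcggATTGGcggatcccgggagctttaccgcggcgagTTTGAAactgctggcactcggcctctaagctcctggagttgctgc
In this window Prc1 and Kif23 have 1 CHR match and 1 CCAAT match each, Mki67 has 2 and 3, Cdk1 has 2 and 3, and Anln has a CHR match on the reverse strand and no CCAAT. Of the 31 mitosis genes 25 have a promoter in the table. A CHR match was present in 19 of them (76.0%), against 11.1% of the promoters of all tested genes and 17.4% of all 27025 promoters. A CCAAT match was present in 20 (80.0%, against 37.4% and 36.6%), and both in 17 (68.0%, against 4.23% and 6.54%). Among 25 replication genes CHR was present in 3, and a match to TTTGGCGC or TTTCCCGC, forms of the E2F site, on either strand in 7 (28.0%, against 2.86% and 1.52%). Such matches describe the letters of these windows and nothing of what is bound there. Cdk1 measured 73.96 on the TAC array, 11.3 on its sham and between the floor and 41.1 on the others.

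Genes of DNA replication were higher by less. Of 28 measured members 6 were 2-fold higher, 15 lay above all controls (at most 10 for a single control) and 1 below, with a median log2 ratio of 0.61 against at most 0.30 between controls. Mcm5, of the replicative helicase, measured 112 on the TAC array, 38.9 on its sham and 32.2 to 84.8 on the others, and Mcm2, of the same complex, 219.7 and 92.8 (64.5 to 136). Cdt1, which loads the helicase, measured 116 on the TAC array and 46.9 on its sham (1.31). Mcm6 had the highest ratio (3.08), but its sham signal of 19.6 lay under the 41.6 to 91.1 of the other controls, and its ratio to the highest control was 1.82-fold. The sham lay below the other 5 controls for 8 of the 28 genes. Pcna, the sliding clamp, was bright and differed little, at 1114 on the TAC array and 911 on its sham. Against the Ang II control in place of the sham the median of this list, less that of all genes, was 0.248.

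Immediate early genes, which respond to stretch and growth signals within minutes, were modestly higher. Of 26 measured members 3 were 2-fold higher and 16 lay above all controls, against at most 10 for a single control, with a median log2 ratio of 0.45 against at most 0.15 between controls. The sham itself lay above the other 5 controls for 10 of the 26. Egr2, a zinc finger transcription factor, measured 81.04 on the TAC array, 16.5 on its sham and between the floor and 18.8 on the others. Myc measured 48.4 on the TAC array, 21.3 on its sham and 9.29 to 28.4 on the others. Egr3 had a ratio of 1.80 on its brightest probe set and -2.47 on another, and the mean of both was -0.34. The related Egr1 measured 706 on the TAC array and 502 on its sham, both above the 141 to 214 of the other controls, and Fos, at 209.8 on the TAC array and 233 on its sham, showed the same position of both arrays.

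Genes of the contractile apparatus were lower by small amounts in most members. Of 23 measured sarcomere genes 16 lay below all 6 controls, against at most 8 for a single control, and 4 lay above, with a median log2 ratio of -0.18 against at most 0.10 between controls. Apart from Myh7 and Myl7, no sarcomere gene was 2-fold. Myh6, the adult ventricular myosin heavy chain, measured 11132 on the TAC array, 13529 on its sham and 13688 to 14974 on the others (-0.28). Tnni3, cardiac troponin I, measured 7956 on the TAC array and 9881 on its sham (-0.31), and the Z disc protein Ldb3 3330.3 and 4642 (-0.48). A list of 16 cardiomyocyte markers behaved alike, with 15 below all controls (at most 6 for a single control) and a median of -0.26 against at most 0.05 between controls, and its summed signal was 130943 on the TAC array and 156348 on its sham (155241 to 168086 over all controls).

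The size of this difference depended on how the arrays were put on a scale and on the probe sets. With all probe sets of a gene averaged the sarcomere median, less that of all genes, was -0.0605. Of the 16 cardiomyocyte markers 14 exceeded a signal of 5000 on average. After quantile normalization, which forces the brightest values of all arrays to be equal, the cardiomyocyte median less that of all genes was -0.00421 with 2 of 16 below all controls, and the sarcomere median reversed to 0.0837. With the deposited signals unscaled, 8 cardiomyocyte markers lay below all controls.

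Calcium handling and ion channel genes were lower too. Of 20 measured calcium handling genes 12 lay below all controls, against at most 7 for a single control, and 4 above, with a median log2 ratio of -0.23 against at most 0.09 between controls. Hrc, a calcium-binding protein of the sarcoplasmic reticulum, measured 2784 on the TAC array, 4571 on its sham and 4202 to 4471 on the others. Trdn, which anchors the calcium release complex, measured 1442 on the TAC array and 2093 on its sham, although its 5 other probe sets gave -0.25 to 0.90. The release channel Ryr2 (-0.34), the pump Atp2a2 (-0.19) and its inhibitor Pln (-0.29) were all lower and below the controls, whereas Sln, an inhibitor of the pump in atria, was 2.41-fold higher.

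Of 18 measured potassium and other ion channel genes 10 lay below all controls and 1 above, against at most 6 on either side for a single control, with a median log2 ratio of -0.34 against at most 0.15 between controls. Kcnip2, a subunit of the transient outward channel, measured 902 on the TAC array, 1444 on its sham and 1257 to 1649 on the others. Kcnh2, the rapid delayed rectifier, measured 253 on the TAC array, 434 on its sham and 353 to 441 on the others. Both were below every control, at -0.68 and -0.78. Kcnj5, of the acetylcholine-activated channel, had a ratio of -0.79, and Kcnk3 (-0.62) stayed within the range of the controls. Among transcription factors of the heart Hopx, a homeodomain cofactor, was the furthest below, at 1431 on the TAC array, 2856 on its sham and 2578 to 2779 on the others, while the median of the 26 measured members was -0.15 and that between controls reached 0.23.

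Genes of mitochondrial fuel use were lower in nearly every member, by amounts under 2-fold. Of 33 measured genes of fatty acid uptake and oxidation 31 lay below all 6 controls, against at most 12 for a single control, with a median log2 ratio of -0.46 against at most 0.15 between controls. Acaa2, the last enzyme of the mitochondrial beta-oxidation cycle, measured 2983 on the TAC array, 4965 on its sham and 5049 to 6289.8 on the others. Cpt2, which receives acyl groups inside the mitochondrion, measured 1312 on the TAC array and 2070.1 on its sham, and the thioesterase Acot2 452 and 798. These 3 were 1.66-fold, 1.58-fold and 1.77-fold lower and outside the controls. The exception was Cpt1a, the carnitine transferase of the outer membrane in liver and fetal heart, which lay above all controls at 353 on the TAC array and 274 on its sham. None of the 33 was 2-fold lower.

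All 20 measured genes of the TCA cycle and all 42 of the respiratory chain and ATP synthase lay below all 6 controls. Their medians were -0.35 and -0.35, against at most 0.15 and 0.14 between controls. Among TCA enzymes Suclg2, of succinyl-CoA ligase, measured 1391 on the TAC array, 2179 on its sham and 1840.3 to 2235 on the others. The citrate synthase Cs measured 5243 on the TAC array and 6908 on its sham (-0.40), and isocitrate dehydrogenase Idh3a 4239 and 5855 (-0.47). In the respiratory chain the complex I subunit Ndufs8 measured 4927 on the TAC array, 7586 on its sham and 5982 to 8372 on the others, and its 5 other probe sets gave -0.93 to -0.33. The cytochrome oxidase subunits Cox8b and Cox7a1 had ratios of -0.56 and -0.54. The smallest was -0.14, for Ndufa2.

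Genes of these lists also moved together between control arrays. A single control array lay below the other 5 for up to 22 of the 42 respiratory genes and up to 11 of the 20 TCA genes, and in both cases it was the sham of this comparison. The sham was also the control most often below the other 5 for fatty acid genes (12). The same held for the lists of ketone and branched-chain amino acid use (9), PPAR-alpha targets (8) and glycolysis (11) that follow. Of the 42 respiratory genes 35 exceeded a signal of 5000. After quantile normalization the medians, less those of all genes, shrank to -0.0897 for the respiratory chain and -0.151 for the TCA cycle, and 30 of the 42 lay below all controls. With the deposited signals unscaled 34 of the 42 and 13 of the 20 did.

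Enzymes that burn ketones and branched-chain amino acids had the lowest median of the fuel lists, -0.49 over 21 measured genes, with 17 below all controls and at most 9 for a single control. Ppm1k, the phosphatase that activates branched-chain keto acid dehydrogenase, measured 654 on the TAC array, 1112 on its sham and 1056 to 1264 on the others, although a second probe set gave -0.22. The dehydrogenase subunits Bckdha and Bckdhb measured 546 and 681 on the TAC array, against 895 and 1027 on its sham. Their ratios of -0.71 and -0.59 lay beyond all controls. Of 28 measured PPAR-alpha targets and regulators of fuel genes 15 lay below all controls and 0 above, against at most 8 below for a single control, with a median of -0.33. Ppara itself measured 271 on the TAC array and 379 on its sham (-0.48), and the lipase Ces1d 290.1 and 565 (-0.96).

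Glycolytic genes were divided. Of 34 measured genes of glycolysis, pyruvate entry and the pentose phosphate path 21 lay below all controls (at most 11 for a single control) and 3 above, with a median of -0.20 against at most 0.12 between controls. The 3 above were the regulatory enzyme Pfkfb3 (0.97), the platelet form of phosphofructokinase Pfkp and the pentose phosphate enzyme Pgd (0.47). Pfkp measured 705 on the TAC array and 418 on its sham (0.75), whereas the muscle form Pfkm measured 3658 on the TAC array and 4933 on its sham (-0.43). The heart form of lactate dehydrogenase Ldhb was lower as well (-0.48).

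**Figure D4:**
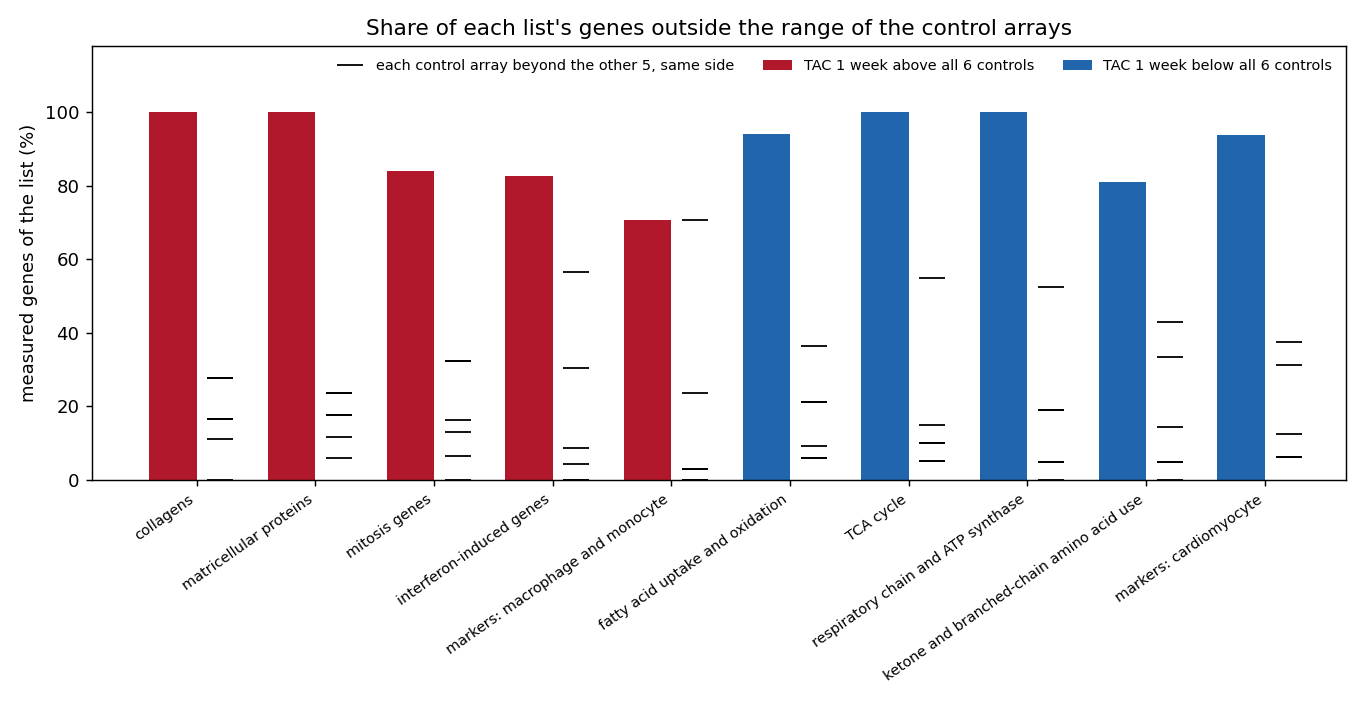
For 10 gene lists, bars give the percentage of measured genes for which TAC 1 week lies above (red) or below (blue) all 6 control arrays, and each black tick is a control array beyond the other 5 on the same side. Collagens, matricellular proteins, the TCA cycle and the respiratory chain reach 100%, and for macrophage markers a single control reaches as high as TAC.

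Markers of other cells were read beside these groups. Endothelial markers did not stand apart gene by gene, with a median of -0.01 over 21 measured genes and 15 within the control range. Their summed signal was 14643 on the TAC array, just under its sham at 14781. The sham was the lowest of the controls, whose highest was 17386. Smooth muscle and pericyte markers had a median of 0.05 over 15, with 3 above and 4 below the controls (at most 5 on either side for a single control), and their summed signal was 16494 on the TAC array and 18621 on its sham, with 17708 to 19672.5 over all controls. The exception was Cnn1, a calponin, at 108 on the TAC array, 17.6 on its sham and 21.4 to 32.7 on the others. The smooth muscle genes Acta2, Myh11 (-0.39) and the channel subunit Abcc9 (-0.73) did not share its direction.

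Macrophage and monocyte markers require the sham to be read with care. On the TAC array 24 of 34 measured markers lay above all 6 controls, but the sham itself lay above the other 5 controls for 24 of the 34. The median was 0.24, under the 0.75 that separated control arrays, and against the Ang II control in place of the sham it was 1.06 after the median of all genes was subtracted. The summed signal was 15633 on the TAC array and 14549 on its sham, the highest of the controls, whose lowest was 8816. Ms4a7, a membrane protein of macrophages, was the only 2-fold member, at 191 on the TAC array, 74.1 on its sham and 27.6 to 60.5 on the others. Ccr2, the receptor of recruited monocytes, measured 75.3 on the TAC array, 38.8 on its sham and 14.6 to 31.7 on the others. Gpnmb (-0.81) was lower than on the sham but higher than on the Ang II control (2.39) and the MI sham (2.24). The part of these cells in the matrix and division genes was not tested.

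Interferon-induced genes were positive in all 23 measured members, with 19 above all controls (at most 13 for a single control), but control arrays differed from each other by up to 0.67 in the median, more than the 0.43 found here. Ifit1, a protein induced by interferon, measured 159 on the TAC array, 60 on its sham and 39.4 to 109 on the others. The GTPase Irgm1 measured 733 on the TAC array and 375 on its sham, with the others spread from 117 to 511. Neutrophil markers were low on both arrays, with a summed signal of 226.8 on the TAC array and 446 on its sham (99 to 689.6 over all controls), a median of -0.87 over 6 measured genes and all 6 within the controls, which differed by up to 2.31, and the median less that of all genes was 1.1 against the Ang II control.

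Several of the largest ratios not described so far were dim or rested on a low sham. Among the 15 highest, Serpinb1a, a protease inhibitor, measured 78.3 on the TAC array, but its sham at 5.50 lay under the 25.5 to 31.8 of the other controls, and a second probe set gave 0.80. The spindle protein Ckap2 measured 63.2 on the TAC array with its sham at the floor, at least 13.9-fold, while the others lay at 13.2 to 30.4. The unnamed gene 4933427D14Rik, at 64.5 on the TAC array and 5.61 on its sham, was at 40.2 to 55.1 on the others, so it stood little above most controls. Ccdc136 (3.08) was as dim. Ecrg4, which encodes a secreted peptide precursor, stood clear of all controls at 234 on the TAC array, 19.5 on its sham and 10.2 to 33.1 on the others. Car3, a carbonic anhydrase of fat and muscle, was higher on its brightest probe set (3.26) but gave 0.27 on the next brightest of the other 3. Itgbl1, a secreted integrin-like protein, measured 449.7 on the TAC array, 103 on its sham and 99.5 to 143 on the others.

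All 15 of the lowest ratios belonged to dim genes, with TAC signals from the floor of 4.54 to 12.4. The furthest were Pcsk4, a proprotein convertase of germ cells, at 6.18 on the TAC array, 50.2 on its sham and 38.4 to 69.4 on the others, and Plxnb3, a plexin, at 9.49 on the TAC array, 74.7 on its sham and 48.1 to 84.4 on the others. Of these 15 genes 7 have other probe sets above the floor on both arrays, and 4 of the 9 were negative, with ratios from -1.85 for Sebox to 1.26 for Spats1. Brighter genes among the 96 lower ones were picked after their values were seen. Ano10, a member of the anoctamin family, measured 233 on the TAC array, 709 on its sham and 616 to 931 on the others. Penk, the enkephalin precursor, measured 49.9 on the TAC array, 144 on its sham and 111 to 181 on the others. Efnb3, a membrane ligand of Eph receptors, measured 96.8 on the TAC array, 293 on its sham and 216 to 533 on the others. These 3 were 3.04-fold, 2.88-fold and 3.02-fold lower, and in the TAC pairs of 1 day and 1 month their log2 ratios were also negative, from -2.63 for Penk at 1 day to -1.08 for Ano10 at 1 day.

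The other TAC times, each with a sham of its own, gave arrays that played no part in the ratio at 1 week. The sample labels give the harvest of 1 day to TAC, whereas the text on the design lists it for MI only. With the control range left out of the rule, since it is shared, and with a brighter signal above 100, 122 genes were at least 2-fold higher at 1 week. At 1 month 117 of these (95.9%) were positive and 58 (47.5%) were 2-fold, against 49.9% and 1.40% of all genes that bright. At 1 day 94 (77.0%) were positive and 40 (32.8%) were 2-fold, against 41.7% and 4.71%. Of 30 lower genes 25 (83.3%) were negative at 1 month and 24 (80.0%) at 1 day, against 50.1% and 58.3% of all genes that bright. Without the limit on brightness 256 of 353 higher genes (72.5%) were positive at 1 month, against 49.9% of all genes, and 241 (68.3%) at 1 day, against 44.7%. Of 161 lower genes 95 (59.0%) were negative at 1 month, against 50.1%, and 88 (54.7%) at 1 day, against 55.3%. Lower calls with the dim genes included were thus no more often negative at 1 day than other genes. They were more often 2-fold lower, with 34 (21.1%) at 1 day and 30 (18.6%) at 1 month, against 7.37% and 1.95% of all genes. Of the 30 lower genes with a brighter signal above 100, 15 were 2-fold lower at 1 day and 12 at 1 month. Among all genes that bright the shares were 6.12% and 0.625%.

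The lists differed in their course. The median log2 ratio of mitosis genes was 0.17 at 1 day, 1.26 at 1 week and 0.56 at 1 month, and that of replication genes 0.21, 0.61 and 0.05. Collagens had medians of 0.66, 1.12 and 0.95 at the same times, and matricellular proteins 1.87, 1.44 and 0.87. Mitosis and collagen genes were thus highest at 1 week, and matricellular genes at 1 day. Immediate early genes were at 1.33, 0.45 and 0.78, and ion channels at -1.33, -0.34 and -0.52. For 13 of the 26 immediate early genes the sham of 1 day lay below the other 5 controls. The sham of 1 week lay above them for 10. The part of the shams in this course was not tested. Respiratory chain genes were at -0.19, -0.35 and -0.32. With 1 array a side at each time, these orders were not tested. At the level of genes, Cthrc1 had ratios of 2.08 at 1 day and 0.23 at 1 month beside its 5.74 at 1 week, while Nppa (1.06, 2.42 and 2.29), Col1a1 (0.59, 2.22 and 2.00) and Postn (1.87, 2.71 and 2.71) kept a high ratio at 1 month. The pair at 1 month held 222 higher (1.91%) and 147 lower (1.26%) 2-fold genes, and the pair at 1 day 663 (5.7%) and 744 (6.4%).

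**Figure D5:**
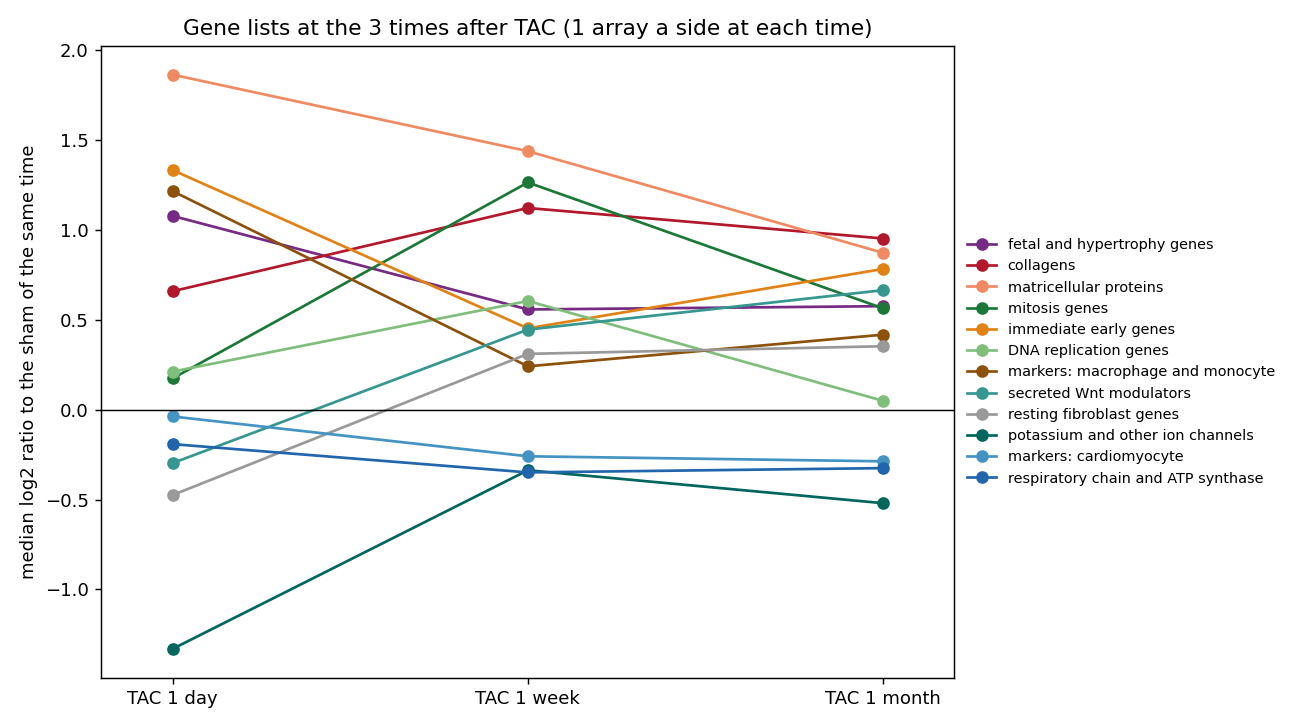
Lines join the median log2 ratio of 12 gene lists in the TAC pairs of 1 day, 1 week and 1 month, each against the sham of the same time, with 1 array a side. Mitosis genes peak at 1 week (1.26), and secreted Wnt modulators and resting fibroblast genes pass from negative medians at 1 day to positive ones at 1 week.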

How the data were processed

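Total RNA of the left ventricle (5 µg, extracted with Trizol) was labelled as biotin cRNA and read on Affymetrix mouse arrays, 1 array a group. The values are the intensity of each of 45101 probe sets as deposited, a linear signal made with GCOS per the submitters' processing notes. How the signal was computed and scaled, and whether animals were pooled, is not given in the sources used here.

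Each array was scaled to a common 2% trimmed mean (factors 0.872 to 1.09), values under the 20th percentile (4.54) were set to it as a floor, and log2 was taken. Of the probe sets 34958 carry 1 gene symbol in the platform annotation, 932 several and 9211 are not listed; the Entrez numbers of 34754 matched RefSeq. The brightest probe set stood for each of 18194 genes, and genes with a mean under the 40th percentile (18.1) were left out, leaving 11624. Of these 18 were at the floor on the sham and 4 on the TAC array. Fold changes against the floor are lower bounds. There are no counts, so the number of arrays limits the precision.

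Named genes are the 15 highest and 15 lowest 2-fold genes, up to 4 members of each list with the largest log2 ratio by size, and all measured fetal genes. Named beyond this rule, after their values were seen, are Ano10, Atp2a2, Cdk1, Cilp, Col12a1, Col3a1, Col4a1, Col4a2, Col4a5, Col6a1, Col6a2, Col6a3, Cpt1a, Cs, Dcn, Efnb3, Egr1, Fos, Foxm1, Kif2c, Mcm2, Meox1, Mmp14, Myh11, Myh6, Ndufa2, Pcna, Pdgfra, Penk, Pfkm, Pgd, Ppara, Runx1, Smad6, Smad7, Tgfb1, Tgfb3, Tgfbr1 and Tgfbr2. The members and lists were chosen with earlier results of these data known. The comparison uses arrays whose sham was matched by title. The alternatives tried were other scalings, floors, probe set rules, filters and control arrays. The calculation was tested on simulated data and run in Python 3.11.15 with NumPy 2.4.6, pandas 2.3.3, SciPy 1.17.1 and Matplotlib 3.10.9.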

Additional observations from a re-analysis of the deposited data

Results flagged for a closer look

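The lists below had medians of opposite sign in the pair of 1 week and in another TAC pair. None of these differences was tested, since each pair has 1 array a side.

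Secreted Wnt modulators had a median log2 ratio of 0.4462 at 1 week and -0.297 at 1 day. Sfrp2 was at 1.84 at 1 week and -1.06 at 1 day, and Dkk3 at 1.54 and -0.30. At 1 week the sham lay above the other 5 controls for 7 of the 13 genes, and below them for 1.

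Resting fibroblast genes had a median of 0.3111 at 1 week and -0.4748 at 1 day. Col15a1, a collagen of basement membranes, was at 1.18 at 1 week and 0.62 at 1 day, and Medag, a fibroblast and fat gene, at 0.77 and 0.98, so both were positive at both times. Inmt, a methyltransferase, was at -0.86 at 1 week and -1.97 at 1 day.

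Ubiquitin ligases and autophagy genes had medians of -0.04785 at 1 week and 0.0448 at 1 month, both close to 0. Skeletal muscle markers, of which 5 were measured, had medians of -0.2573 at 1 week and 0.3323 at 1 month.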

How the results depend on the processing

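Over 10 planned and 4 added alternatives, 132 of 150 recomputed counts, 431 of 484 list medians and 1989 of 2190 ratios of named genes moved by less than the limit set for them (1.5 times for counts, the largest difference between controls for the others). A sign opposite to the reported one, or a value of 0, was met in 25 medians (17 lists) and 78 ratios (42 genes). Of these, 8 medians belong to lists whose reported median exceeded the largest difference between controls, and 1 ratio (Egr3) to a gene called 2-fold. Genes beyond all controls but under 2-fold are not in that count. Among them Csrp3 changed sign, to 0.0284 after quantile normalization and 0.00319 with the deposited signals. With the signals as deposited 513 genes were higher and 55 lower, 4841 lay above and 833 below all controls, and of TCA and cardiomyocyte genes 13 and 8 lay below. Quantile normalization left 2 cardiomyocyte markers below and gave medians, less that of all genes here as in what follows, of 0.0837 for sarcomere genes, -0.151 for the TCA cycle, -0.0897 for the respiratory chain, -0.00421 for cardiomyocyte, 0.0192 for skeletal muscle and 0.0918 for ubiquitin ligases. Averaging probe sets left 10781 genes after the filter on dim genes, with 10 mitosis genes 2-fold higher and 15 above all controls. Its medians were -0.0605 for sarcomere, 0.741 for microfibril, -0.139 for atrial (opposite in sign) and 0.0357 for ubiquitin ligase genes. For Egr3 it gave -0.338. Without the filter on dim genes 392 were higher, and the skeletal muscle median was 0.0. Against the MI sham the medians were 1.04 for matricellular, -0.36 for cardiomyocyte, -0.0144 for stress response and -0.0191 for ribosome biogenesis genes. Against the Ang II control 508 genes were higher and 173 lower, and the medians were 1.54 for collagens, 0.248 for replication and 1.06 for macrophage markers. Against the mean of 3 controls of 1 week they were -0.315 for cardiomyocyte and 0.00366 for skeletal muscle markers. Limits chosen after the data were seen gave 714 higher and 356 lower genes at 1.5-fold, 76 and 15 (7 mitosis genes) at 2-fold beyond all controls, and 161 lower genes with no control range. The cause was not tested. No paired analysis was possible because each group has 1 array. Dim genes near the floor limit the sizes of the largest ratios.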

Other observations

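Genes of the cytoskeleton were higher by small amounts. Of 31 measured members 20 lay above all 6 controls, against at most 9 for a single control, and 4 below, with a median log2 ratio of 0.32 against at most 0.12 between controls. Cnn3, a calponin of non-muscle cells, had a signal of 1123 on the TAC array, 652 on its sham and 618 to 824 on the others, and Stmn1, which destabilises microtubules, 427 on the TAC array and 217 on its sham (228 to 414). Tuba8, a tubulin of heart and skeletal muscle, ran the other way, at 1011 on the TAC array and 1553 on its sham. Among integrins and focal adhesion genes 10 of 24 lay above the controls (at most 9 for a single control), with Itga1, a collagen receptor chain, at 268 on the TAC array and 173 on its sham. Clu, the secreted chaperone clusterin, was the only 2-fold gene of the complement and acute phase list, at 7041 on the TAC array, 3416 on its sham and 3538 to 4409 on the others. Ace, the angiotensin-converting enzyme, measured 316 on the TAC array, 184 on its sham and 128 to 201 on the others, while the 22 measured genes of adrenergic and renin-angiotensin signalling had a median of -0.11, within the 0.14 between controls.

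Stress and turnover genes differed little. The median was -0.07 for 32 chaperones and -0.06 for 31 proteasome subunits, where control arrays differed by up to 0.31 and 0.15, and both turned positive after quantile normalization (0.0504 and 0.0192 less the median of all genes). The inducible subunits Psmb8, Psmb9 and Psmb10 lay above all controls at 0.41, 0.41 and 0.58, and the constitutive subunit Psmb6 below them at -0.42. Of 24 genes of the integrated stress response and serine synthesis 2 were 2-fold higher, Mthfd2, a mitochondrial folate enzyme, at 53.6 on the TAC array and 22.8 on its sham, and Nupr1, a stress-induced nuclear protein, at 102 on the TAC array and 43.4 on its sham. Above all controls lay 8 of the 24 and below them 4, no more than the 8 and 7 of a single control. The glutathione transferases Gstm1 and Gstm2 measured 922 and 965 on the TAC array, against 1615 and 1489 on its sham, and lay below all controls. Vegfb, a growth factor of heart muscle, measured 989.7 on the TAC array, 1452 on its sham and 1154 to 1502 on the others, and the hypoxia factor Epas1 2095 on the TAC array and 3042 on its sham (2812 to 3573). All 16 measured circadian clock genes stayed within the control range, although control arrays differed from each other by up to 0.60 in the median of that list. Of 29 ribosome biogenesis genes 2 were 2-fold higher, among them Rrp12 (1.04), and 1 was 2-fold lower, Rrp9, at 25.7 on the TAC array, 85.3 on its sham and 25.8 to 82.3 on the others. Above all controls lay 6 of the 29 and below them 4, under the 8 and 6 that a single control reached.

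Markers of rarer cells gave few measured genes. Of 8 mesothelial markers 3 lay below all controls and 2 above, of 8 nerve and Schwann cell markers 7 lay within the controls, and of 8 adipocyte markers 3 lay below and 2 above, all within what a single control reached. Among probe sets without a single gene symbol 28 of 10092 were at least 2-fold above all 6 controls, against 4 to 58 for a single control.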
